A study of Mus musculus with 24 samples.

Results

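Elastic fibre assembly genes encode tropoelastin, the microfibril proteins it is laid on, and the proteins that hold, align and cross-link it. The set was fixed by symbol as *Eln*, *Fbn1*, *Fbn2*, *Fbln5*, *Ltbp1*, *Ltbp2*, *Ltbp4*, *Lox*, *Loxl1* and *Mfap4*, and a gene was taken where an array row was annotated to exactly that symbol. Of the 10 symbols, 9 had such a row, 1 row each, among 19938 genes measured. *Fbn1*, which encodes fibrillin-1, was not analysed here.

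RNA came from the left lung lobe of male C57Bl/6N Tac mice held under specific-pathogen-free conditions and killed on postnatal day (PND) 0, 3, 10 or 42. At each age there were 3 arrays of WT littermates and 3 of *Scnn1b*-Tg mice, so that 24 arrays form 8 groups. *Scnn1b*-Tg mice overexpress the gene of the beta subunit of the epithelial sodium channel under the promoter of a club cell secretory protein gene, so the transgene acts from airway club cells and not from the cells that make elastic fibres. No group received a treatment. Each array held a pool of mice. The labels list 2 animals for most pools and 1 for *Scnn1b*-Tg PND 42 replicate 3, whereas the methods speak of 3 mice per pool.

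Elastic fibres let the lung recoil. Tropoelastin is secreted by myofibroblasts, smooth muscle cells and other mesenchymal cells, gathers with help of fibulin-5 and latent TGF-beta binding protein 4 on microfibrils built from fibrillins, and is cross-linked through its lysines by lysyl oxidases. In mice most of this deposition belongs to alveolar septation in the first postnatal weeks, and little new elastin is made in the adult lung.

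Values are RMA log2 intensities, on which a step of 1 is a doubling. Because the probes of different genes bind differently, the intensities of different genes were not compared. They were added up only for marker lists, and in such a sum of linear intensities the brightest rows weigh most. A gene is called higher or lower where its limma p, adjusted by the Benjamini-Hochberg method over the 21789 rows that name 1 gene, was no more than 0.05 and the change was at least 2-fold, and "rose" and "fell" are used for called genes only. The spans from PND 0 to PND 10 and from PND 3 to PND 42 were added after the values were seen. Errors are SE of the fitted change (16 residual degrees of freedom) or SD of 3 pools.

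Array medians lay between 4.8 and 5.0. *Scnn1b* itself was higher in the transgenic lungs by 3.04, 3.29, 3.22 and 2.93 log2 at PND 0, 3, 10 and 42, called at each age, as the labels imply. Markers of lung were bright on every array, with the surfactant gene *Sftpc* at 12.39 or more and the club cell gene *Scgb1a1* at 11.58 or more. In whole lung, fewer cells of a type and less RNA per cell cannot be told apart.

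**Figure D1:**
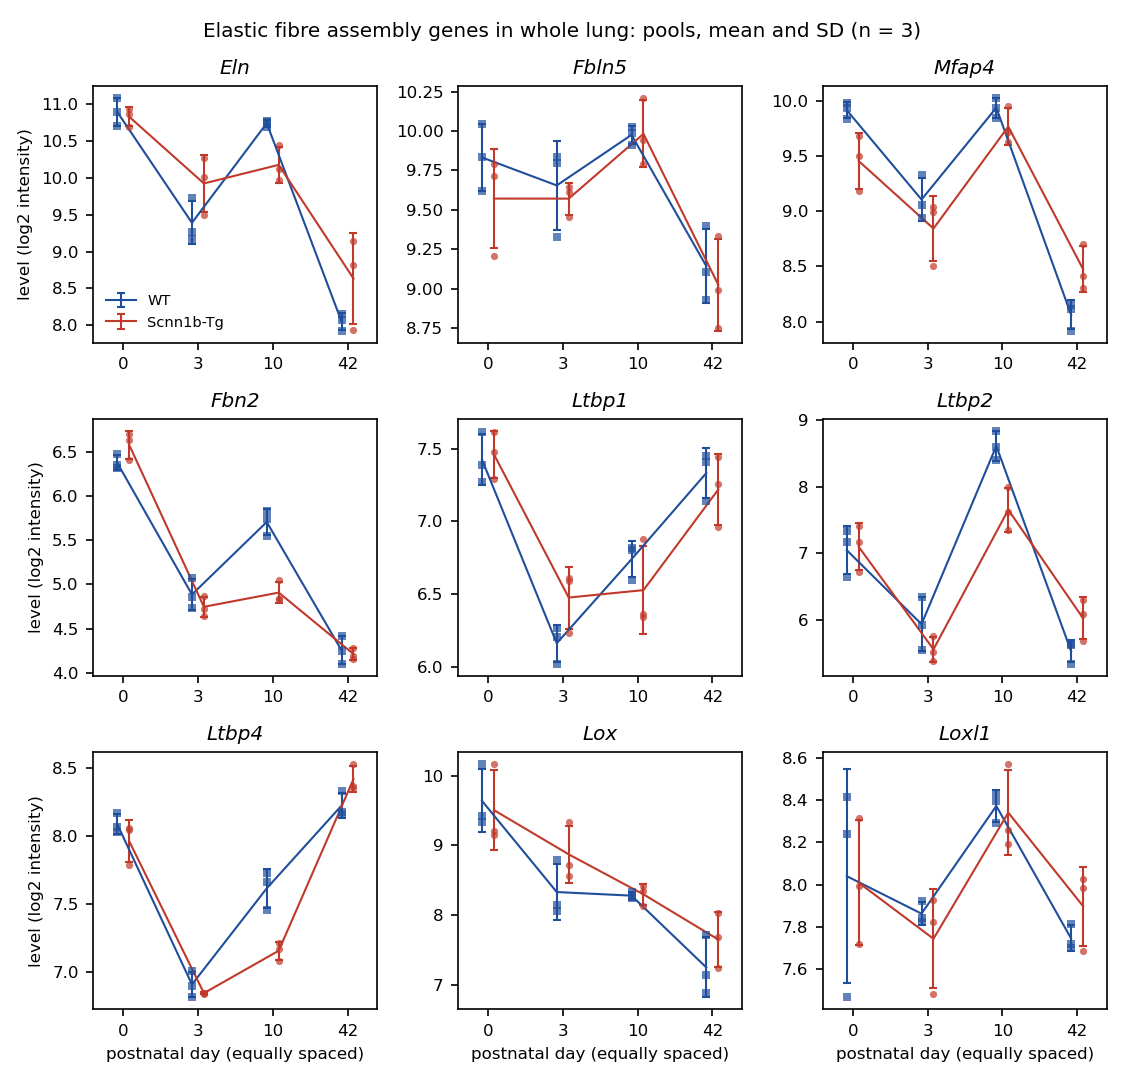
Level (log2 intensity) of the 9 measured elastic fibre assembly genes by postnatal day, with ages spaced equally along x. Squares (WT) and circles (Scnn1b-Tg) are single pools, lines join group means and bars are SD of 3 pools. *Eln*, *Fbn2*, *Ltbp2* and *Mfap4* dip at PND 3, stand higher at PND 10 and are lowest at PND 42 in WT lungs, whereas *Ltbp1* and *Ltbp4* climb from PND 10 to PND 42. Each panel has its own y range.

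*Eln*, the gene of tropoelastin, was high at birth, lower at PND 3, high again in WT lungs at PND 10 and lowest in the adult. The 3 WT pools stood at 10.70, 10.90 and 11.08 log2 at PND 0 and at 9.17, 9.72 and 9.27 at PND 3. They returned to 10.77, 10.76 and 10.69 at PND 10 and lay at 8.16, 8.07 and 7.92 at PND 42. No 2 neighbouring WT ages overlapped. *Eln* thus fell by 1.5 log2 (adjusted p = 1.47e-05, SE 0.23) from PND 0 to PND 3, rose by 1.35 (adjusted p = 0.000643, SE 0.23) to PND 10 and fell by 2.69 (adjusted p = 2.23e-08, SE 0.23), or 6.45-fold, to PND 42. Between PND 0 and PND 10 the WT levels differed by -0.15 log2 (95% interval -0.64 to 0.33).

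The *Eln* pools of *Scnn1b*-Tg lungs lay at 10.87, 10.94 and 10.69 at PND 0, at 10.27, 10.01 and 9.50 at PND 3, and at 9.97, 10.44 and 10.12 at PND 10. At PND 42 they spread from 7.94 over 8.82 to 9.14, the widest *Eln* group with an SD of 0.62. The PND 3 and PND 10 pools of this genotype overlapped. The change between these ages was 0.25 log2 (adjusted p = 0.724, SE 0.23) and the one before it was -0.91 (adjusted p = 0.00251), under the 2-fold limit. *Eln* fell by 1.54 log2 (adjusted p = 2.73e-05, SE 0.23) from PND 10 to PND 42, and the 3 pools of each of these ages did not overlap.

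*Mfap4*, whose product binds tropoelastin and fibrillin, was likewise lower at PND 3 than at PND 0 and PND 10 and lowest at PND 42 by its group means in both genotypes. In WT lungs the pools stood at 9.98, 9.93 and 9.83 at PND 0, at 9.32, 9.05 and 8.94 at PND 3, at 9.84, 10.03 and 9.94 at PND 10 and at 8.16, 8.12 and 7.92 at PND 42. It fell by 1.87 log2 (adjusted p = 1.01e-08, SE 0.15) from PND 10 to PND 42 in WT and by 1.29 (adjusted p = 1.76e-06, SE 0.15) in *Scnn1b*-Tg lungs, in which the pools were 9.62, 9.72 and 9.95 before and 8.31, 8.42 and 8.70 after. The groups did not overlap in either genotype. The change from PND 3 to PND 10 stayed under 2-fold, at 0.83 log2 in WT and 0.92 in *Scnn1b*-Tg lungs.

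*Fbln5*, the gene of fibulin-5, which tethers tropoelastin to cell surface integrins and microfibrils, was called in none of the comparisons. Its 8 group means lay between 9.02 and 9.98 log2, a range above that of 70.2% of tested rows. From PND 10 to PND 42 it changed by -0.83 log2 in WT (adjusted p = 0.00098, SE 0.18) and by -0.96 in *Scnn1b*-Tg lungs (adjusted p = 0.000264, SE 0.18), both under 2-fold. The latter change was called without *Scnn1b*-Tg PND 10 replicate 1 (-1.05) or *Scnn1b*-Tg PND 42 replicate 3 (-1.11).

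*Ltbp2*, which encodes a fibrillin-binding protein that does not bind latent TGF-beta, had the widest range of WT group means among the measured members. In WT lungs its pools stood at 6.64, 7.17 and 7.34 at PND 0, at 5.93, 5.54 and 6.34 at PND 3, at 8.60, 8.84 and 8.40 at PND 10 and at 5.62, 5.34 and 5.64 at PND 42. Every WT pool at PND 10 was above every WT pool of the other ages. *Ltbp2* rose by 2.68 log2 (adjusted p = 3.56e-07, SE 0.22), or 6.4-fold, from PND 3 to PND 10 and fell by 3.09 (adjusted p = 2.54e-09, SE 0.22), or 8.49-fold, to PND 42. Its PND 10 level was also above that at birth, by 1.57 log2 (adjusted p = 1.17e-05). The range of its group means, 3.09 log2, exceeded that of 99.3% of tested rows.

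In *Scnn1b*-Tg lungs *Ltbp2* was likewise highest at PND 10, but its lowest group mean was at PND 3 (5.56) and not at PND 42 (6.03). The pools of these 2 ages overlapped in both genotypes. Its change from PND 3 to PND 42 was 0.47 log2 (adjusted p = 0.127) in *Scnn1b*-Tg and -0.41 (adjusted p = 0.182) in WT lungs. The *Scnn1b*-Tg pools were 6.72, 7.42 and 7.17 at PND 0, 5.77, 5.52 and 5.39 at PND 3, 7.35, 8.0 and 7.63 at PND 10 and 5.68, 6.09 and 6.30 at PND 42. It fell by 1.54 log2 (adjusted p = 9.14e-06, SE 0.22) to PND 3, rose by 2.10 (adjusted p = 8.33e-06, SE 0.22) to PND 10 and fell by 1.63 (adjusted p = 1.26e-05, SE 0.22) to PND 42. The PND 10 pools overlapped those at birth, with a difference of 0.56 log2 (95% interval 0.08 to 1.03).

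*Ltbp1* and *Ltbp4*, whose products carry latent TGF-beta to the matrix and, for *Ltbp4*, also help to align elastin with microfibrils, ran the other way after PND 10. For *Ltbp4* the WT pools were 8.07, 8.03 and 8.17 at PND 0, 6.82, 6.90 and 7.01 at PND 3, 7.73, 7.66 and 7.46 at PND 10 and 8.17, 8.33 and 8.18 at PND 42. The *Scnn1b*-Tg pools were 7.79, 8.06 and 8.05, then 6.85, 6.85 and 6.84, then 7.09, 7.22 and 7.17, and last 8.36, 8.37 and 8.53 at the same ages. No 2 neighbouring ages overlapped in either genotype. By PND 3 *Ltbp4* had fallen by 1.18 log2 in WT (adjusted p = 1.15e-08, SE 0.10) and by 1.12 in *Scnn1b*-Tg lungs (adjusted p = 1.24e-08, SE 0.10). It rose by 1.26 log2 (adjusted p = 9.84e-09, SE 0.10) from PND 10 to PND 42 in *Scnn1b*-Tg lungs, and its change there in WT, 0.61 (adjusted p = 5.83e-05, SE 0.10), was under 2-fold.

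For *Ltbp1* the WT pools were 7.27, 7.39 and 7.62 at PND 0, 6.02, 6.20 and 6.26 at PND 3, 6.6, 6.82 and 6.80 at PND 10 and 7.14, 7.45 and 7.41 at PND 42. The lowest age was again PND 3, and PND 42 overlapped PND 0. In WT lungs *Ltbp1* fell by 1.26 log2 (adjusted p = 1.16e-06, SE 0.15) to PND 3, where the 2 later steps were 0.58 and 0.59 log2. From PND 3 to PND 42 it rose by 1.17 log2 (adjusted p = 5.22e-06) in WT. Its *Scnn1b*-Tg means were 7.46, 6.47, 6.53 and 7.22, and no step between neighbouring ages was called.

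The 3 measured latent TGF-beta binding protein genes of the set therefore split after PND 10. To show what lies upstream of the opposite courses, stretches before an annotated start are printed for each of them, from position -250 to -71 (RefSeq, GRCm38.p6, 5' to 3' on the gene's strand, 180 bases). Capitals mark the letters GGGCGG, the core of a GC box, on either strand. The *Ltbp2* stretch is chr12:84876562-84876741 on the minus strand, the *Ltbp4* stretch chr7:27337683-27337862 on the minus strand and the *Ltbp1* stretch chr17:75005279-75005458 on the plus strand. The *Ltbp4* stretch belongs to 1 of 3 annotated starts and lies inside the span annotated to the gene, and the *Ltbp1* stretch belongs to 1 of 2 annotated starts.
Ltbp2: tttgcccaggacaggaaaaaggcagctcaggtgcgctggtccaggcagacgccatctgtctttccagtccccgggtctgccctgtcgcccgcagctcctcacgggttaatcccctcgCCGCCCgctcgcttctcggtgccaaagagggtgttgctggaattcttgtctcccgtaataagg
Ltbp4: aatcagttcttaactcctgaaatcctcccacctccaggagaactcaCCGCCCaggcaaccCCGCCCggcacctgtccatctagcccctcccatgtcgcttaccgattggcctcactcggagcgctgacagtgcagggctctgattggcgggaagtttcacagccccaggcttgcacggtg
Ltbp1: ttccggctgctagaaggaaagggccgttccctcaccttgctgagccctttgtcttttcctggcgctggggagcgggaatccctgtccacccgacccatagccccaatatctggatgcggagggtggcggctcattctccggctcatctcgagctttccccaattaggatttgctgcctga

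The *Ltbp2* stretch held 1 match, which begins at position -133, the *Ltbp4* stretch held 2, which begin at -204 and -190, and the *Ltbp1* stretch held none. GGGCGG occurred in 21.1% of the 32851 promoter stretches of this length. GC content was 61.1% for *Ltbp2*, 60.6% for *Ltbp4* and 58.9% for *Ltbp1*, against a median of 51.1% over all stretches. The letters TATAAA (in 8.37% of stretches), GGAATG (9.76%), CACGTG (3.69%) and the CArG box (1.0%), searched on both strands, had no match in the 3 stretches. These are matches of letters and no measure of binding.

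*Fbn2*, the gene of fibrillin-2, the fibrillin of developing tissues, was highest at birth and lowest in the adult. The WT pools stood at 6.35, 6.47 and 6.32 at PND 0, at 4.86, 4.73 and 5.07 at PND 3, at 5.74, 5.84 and 5.55 at PND 10 and at 4.24, 4.42 and 4.10 at PND 42. The *Scnn1b*-Tg pools were 6.40, 6.71 and 6.63, then 4.72, 4.87 and 4.64, then 4.84, 5.05 and 4.84, and last 4.19, 4.16 and 4.28. In WT each age was apart from its neighbours, whereas the *Scnn1b*-Tg pools of PND 3 and PND 10 overlapped. *Fbn2* fell by 1.49 log2 (adjusted p = 7.17e-09, SE 0.11) in WT and by 1.83 (adjusted p = 4.16e-10, SE 0.11) in *Scnn1b*-Tg lungs from PND 0 to PND 3. From PND 10 to PND 42 it fell by 1.45 log2 (adjusted p = 8.52e-09, SE 0.11) in WT, and its change in *Scnn1b*-Tg lungs was -0.70 (adjusted p = 8.72e-05, SE 0.11), under 2-fold. Its mean over the arrays, 5.21, was brighter than 50.1% of tested rows. The levels at PND 3 and PND 42, and in *Scnn1b*-Tg lungs also at PND 10, averaged under 5 log2 and lie among dim rows.

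Of the lysyl oxidases, *Lox* had its highest group mean at birth and its lowest at PND 42 in both genotypes, and *Loxl1* was not called. The *Lox* WT pools were 10.16, 9.43 and 9.33 at PND 0, 8.07, 8.79 and 8.14 at PND 3, 8.24, 8.34 and 8.26 at PND 10 and 7.15, 7.72 and 6.89 at PND 42. The *Scnn1b*-Tg pools were 10.16, 9.21 and 9.15, then 9.34, 8.71 and 8.57, then 8.14, 8.34 and 8.42, and last 7.24, 7.69 and 8.03. A second rise at PND 10 was called in neither genotype, with changes from PND 3 of -0.05 in WT and -0.57 log2 (adjusted p = 0.371) in *Scnn1b*-Tg lungs. *Lox* fell by 1.31 log2 (adjusted p = 0.000782, SE 0.28) from PND 0 to PND 3 and by 1.03 (adjusted p = 0.00828, SE 0.28) from PND 10 to PND 42 in WT. In *Scnn1b*-Tg lungs it fell by 1.85 log2 (adjusted p = 1.57e-05, SE 0.28) over the whole span from PND 0 to PND 42, and none of the 3 single steps was called. The group means of *Loxl1* lay between 7.74 and 8.37 log2.

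Of the 9 measured members, 6 in WT and 3 in *Scnn1b*-Tg lungs were called lower at PND 3 than at birth. From PND 0 to PND 3 the change was below 0 for all 9 measured members in WT and for 8 in *Scnn1b*-Tg lungs, where *Fbln5* stood at 0.00, with a median of -1.18 log2 in WT and -0.91 in *Scnn1b*-Tg lungs against 0.06 and 0.07 over all rows. In WT 6 members fell (*Eln*, *Fbn2*, *Lox*, *Ltbp1*, *Ltbp2* and *Ltbp4*) and 0 rose, where 7.79% of all rows fell and 1.96% rose. In *Scnn1b*-Tg lungs 3 fell (*Fbn2*, *Ltbp2* and *Ltbp4*), where 8% of rows fell. *Ltbp4* lost this call with quantile normalization repeated (-0.86 log2) and with array medians subtracted (-0.97), and *Eln* gained one with the former (-1.14, adjusted p = 0.00017). *Loxl1* changed by -0.18 log2 in WT (adjusted p = 0.443) and by -0.26 in *Scnn1b*-Tg lungs (adjusted p = 0.244). The *Fbln5* value in *Scnn1b*-Tg lungs was 0.01 with quantile normalization repeated and 0.15 with array medians subtracted, and the *Loxl1* value in WT was 0.04 with the repeated normalization. With that normalization the WT count was 3, because *Ltbp1*, *Ltbp2* and *Ltbp4* then lay at -0.97, -0.79 and -0.94 log2. *Ltbp2* in WT also lost its call with array medians subtracted (-0.94), without WT PND 0 replicate 3 (-0.97) and without WT PND 3 replicate 2 (-0.91).

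**Figure D2:**
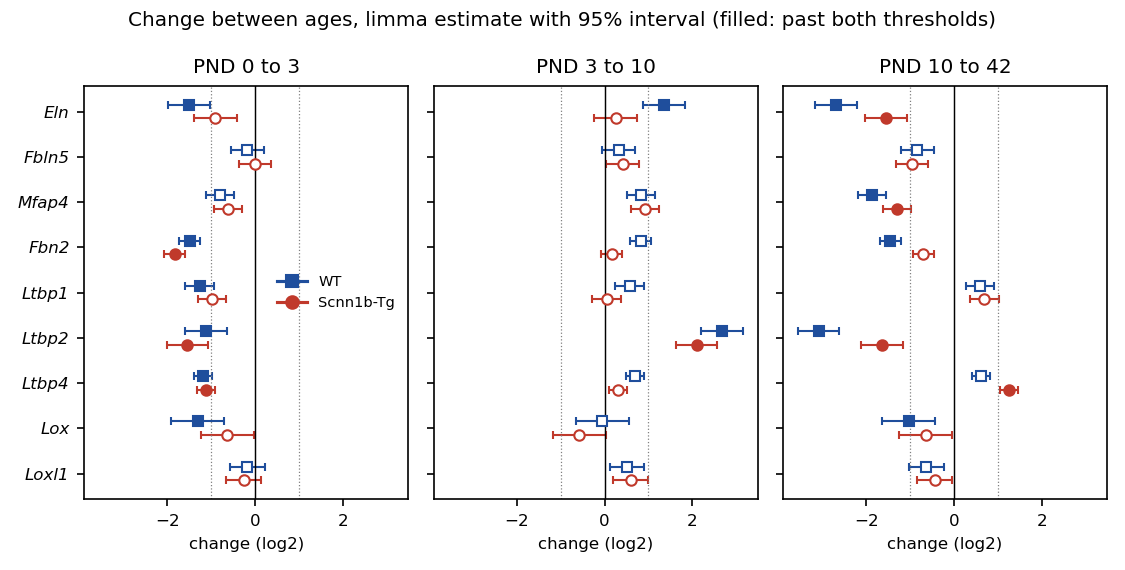
Change in level (log2, later minus earlier age) of each measured elastic fibre assembly gene over the 3 age intervals, as the limma estimate with its 95% interval. Squares are WT and circles Scnn1b-Tg, filled where it was called, and dotted lines stand at 2-fold. *Ltbp2* has the longest excursions, up by 2.68 and down by 3.09 log2 in WT, and *Ltbp1* and *Ltbp4* are the members to the right of 0 from PND 10 to PND 42.

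From PND 3 to PND 10, 2 members rose in WT (*Eln* and *Ltbp2*), where 1.05% of all rows rose, and 1 rose in *Scnn1b*-Tg lungs (*Ltbp2*), where 0.817% did. The median over the members was 0.71 log2 in WT and 0.31 in *Scnn1b*-Tg lungs, against -0.01 over all rows in each. Without a fold threshold, 6 WT members had an adjusted p of at most 0.05 (5.03% of rows) against 2 in *Scnn1b*-Tg lungs (3.27% of rows). The difference between the genotypes in this interval was itself called for 0 of 9 members by limma (0.00918% of rows were called), with 4 at an unadjusted p under 0.05 (6.64% of rows), and its largest values were -1.10 log2 for *Eln* (adjusted p = 0.519) and -0.66 for *Fbn2* (adjusted p = 0.406).

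Between PND 10 and PND 42, 5 members fell in WT lungs (*Eln*, *Fbn2*, *Lox*, *Ltbp2* and *Mfap4*), where 3.84% of rows fell. All 9 passed the adjusted p (30.4% of rows) and had pools that did not overlap (44.1% of rows), 7 of them lower and *Ltbp1* and *Ltbp4* higher at PND 42. In *Scnn1b*-Tg lungs 3 fell (*Eln*, *Ltbp2* and *Mfap4*), where 3.38% of rows fell, and *Ltbp4* rose, where 1.79% of rows rose. Without WT PND 42 replicate 3 the fall of *Lox* in WT was 0.84 log2 and no longer called, and it was also under 2-fold without WT PND 10 replicate 2 or without WT PND 42 replicate 1. It lost its call with quantile normalization repeated (-0.74) and with array medians subtracted (-0.96) as well.

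Over the whole span from PND 0 to PND 42, 5 members fell in WT (9.73% of rows fell). These were *Eln* by 2.84, *Lox* by 2.38, *Fbn2* by 2.12, *Mfap4* by 1.85 and *Ltbp2* by 1.52 log2. The *Scnn1b*-Tg lungs had 4 that fell (8.7% of rows fell), *Fbn2* by 2.37, *Eln* by 2.20, *Lox* by 1.85 and *Ltbp2* by 1.07 log2. The fall of *Ltbp2* in *Scnn1b*-Tg lungs lost its call with quantile normalization repeated (-0.64 log2), with array medians subtracted (-0.89), without *Scnn1b*-Tg PND 0 replicate 2 (-0.92) and without *Scnn1b*-Tg PND 42 replicate 1 (-0.90).

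Genotype was then compared at each age, which asks how the transgene alters these genes in lungs of the same age. At a 2-fold limit limma called 0 of 9 members at PND 0, 3, 10 and 42, where 0.0138%, 0.0184%, 0.151% and 0.34% of all rows were called. The counts with an unadjusted p under 0.05 were 1, 1, 4 and 3 at these ages, where 4.54%, 7.35%, 8.65% and 10.3% of rows had one. A change of 2-fold lay outside the 95% interval of every member at PND 0, and at PND 3 inside it for *Eln* and *Lox* only.

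At PND 10, 2 members passed the adjusted p. For *Fbn2* the 3 transgenic pools (4.84 to 5.05) all lay under the 3 WT pools (5.55 to 5.84), a difference of -0.80 log2 (adjusted p = 0.00151, SE 0.11), or 1.74-fold. For *Ltbp4* (7.09 to 7.22 against 7.46 to 7.73) it was -0.46 (adjusted p = 0.035, SE 0.10), or 1.37-fold. Both were under 2-fold, and 0.427% of rows passed the adjusted p. The transgenic *Fbn2* pools lay near the array medians of 4.8 to 5.0, among dim rows. *Fbn2* did so under each of 10 other settings of the fit that keep the rule (adjusted p = 0.000566 to 0.0168) and without each of 6 arrays (0.00176 to 0.0194), whereas *Ltbp4* did so under 6 of the 10 settings (0.014 to 0.0785) and without 2 of the 6 arrays (0.0276 to 0.296).

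*Ltbp2* (7.35 to 8.0 against 8.40 to 8.84) differed by -0.96 log2 (adjusted p = 0.0613, SE 0.22) and *Eln* (9.97 to 10.44 against 10.69 to 10.77) by -0.56 (adjusted p = 0.414, SE 0.23). Pools of the genotypes did not overlap for *Eln*, *Fbn2*, *Ltbp2* and *Ltbp4*, 4 of 9 members against 17.3% of rows. Without *Scnn1b*-Tg PND 10 replicate 2 *Ltbp2* was called, at -1.13 log2 (adjusted p = 0.0364), and over all 6 omissions its adjusted p ran from 0.0364 to 0.502. *Fbln5*, *Lox* and *Loxl1* differed by 0.01, 0.02 and -0.03 log2, with 95% intervals of -0.37 to 0.38, -0.58 to 0.62 and -0.43 to 0.36.

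**Figure D3:**
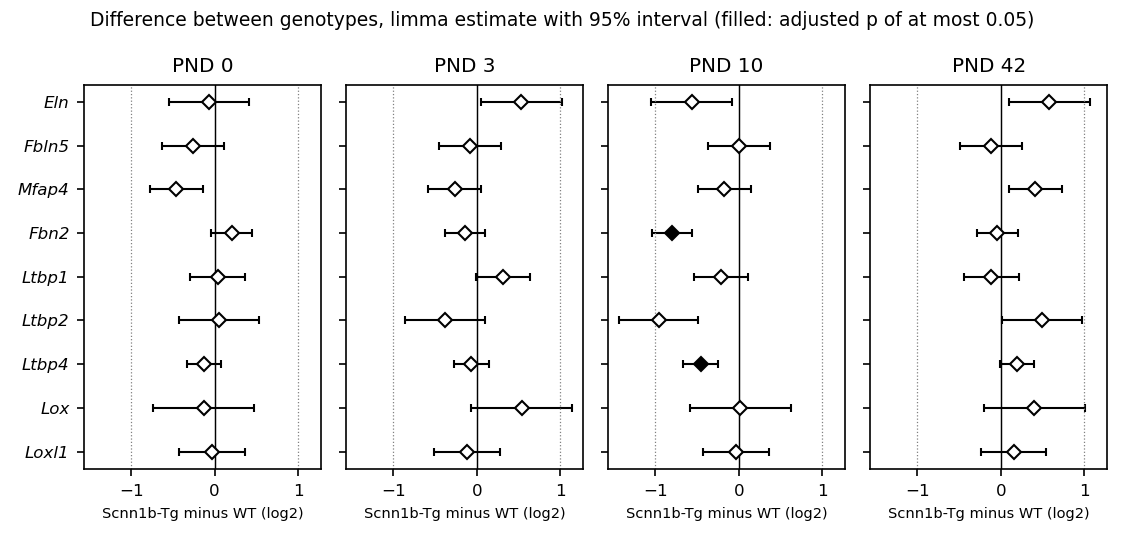
Difference in level between Scnn1b-Tg and WT lungs (log2) for each measured elastic fibre assembly gene at the 4 ages, as the limma estimate with its 95% interval from 3 against 3 pools. Diamonds are filled where the adjusted p was at most 0.05, and dotted lines stand at 2-fold. *Fbn2* and *Ltbp4* are filled at PND 10 only, where *Eln* and *Ltbp2* also lie left of 0, and at PND 42 *Eln*, *Ltbp2* and *Mfap4* lie right of 0.

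Of the marker lists of other cells at this age, those of endothelium, lung epithelium and mesothelium had sums without overlap between the genotypes. The summed linear intensity of the 8 endothelium markers was 3110 to 3870 in the *Scnn1b*-Tg and 4220 to 4680 in the WT pools of PND 10, without overlap, and the list had a median difference of -0.39 log2 with 0 of 8 called. The 8 lung epithelium markers summed to 15700 to 31400 against 31800 to 34400 (median difference 0.10 log2) and the 6 mesothelium markers to 2040 to 2210 against 1230 to 1580 (0.48 log2), with none called in either list. Sums overlapped for the 12 myofibroblast and smooth muscle markers, at 4390 to 6810 against 6550 to 6790 (median difference -0.10 log2). Of these 0 were called and 1 passed the adjusted p, as did 0.427% of rows. Sums of the 8 macrophage markers overlapped as well, at 5550 to 9390 against 7150 to 7650 (median difference 0.43 log2). Of these 1 was called, *Cd68*, higher by 1.13 log2 (adjusted p = 0.036), where 0.151% of rows were called. The part of the cells of these lists in the differences of the elastic fibre genes was not tested.

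At PND 42 no member passed the adjusted p, and for *Eln*, *Ltbp2*, *Ltbp4*, *Mfap4* and *Loxl1* the difference, below 0 at PND 10, was above 0. *Ltbp4* (8.36 to 8.53 against 8.17 to 8.33) stood at 0.19 log2 (adjusted p = 0.51). *Ltbp2* (5.68 to 6.30 against 5.34 to 5.64) differed by 0.50 log2 (adjusted p = 0.447), *Mfap4* (8.31 to 8.70 against 7.92 to 8.16) by 0.41 (adjusted p = 0.282) and *Eln* (7.94 to 9.14 against 7.92 to 8.16) by 0.58 (adjusted p = 0.334). Pools of the genotypes did not overlap for *Ltbp2*, *Ltbp4* and *Mfap4*, 3 of 9 members against 10.7% of rows. The *Eln* value rests on 2 transgenic pools, since replicate 1 lay within the WT range. Of these 2, replicate 3 is the array for which the labels list 1 animal. That array was the highest of its group for each measured member. The *Eln* difference was 0.33 log2 without transgenic replicate 3. Without transgenic replicate 1 it was 0.93 log2 (adjusted p = 0.0137), still under 2-fold. Over all 6 omissions its adjusted p ran from 0.0137 to 0.609.

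The change from PND 10 to PND 42 differed between *Scnn1b*-Tg and WT lungs for 3 members by a test of the difference itself. *Ltbp2* changed by -1.63 against -3.09 log2, a difference of 1.45 (SE 0.32, 95% interval 0.78 to 2.13, adjusted p = 0.0496), which was called, where 0.193% of rows were called in this direction. *Fbn2* changed by -0.70 against -1.45, a difference of 0.76 (adjusted p = 0.0455, SE 0.16). *Ltbp4*, higher at PND 42 than at PND 10 in both genotypes, changed by 1.26 against 0.61, a difference of 0.65 (adjusted p = 0.0432, SE 0.14), and both of these were under 2-fold. The 3 members had an adjusted p of at most 0.05, as had 0.321% of rows, and *Eln* differed by 1.15 log2 (adjusted p = 0.139, SE 0.32).

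Each of these 3 p-values lay close to the threshold. Over 10 other settings of the fit the adjusted p ran from 0.0314 to 0.131 for *Ltbp2*, from 0.0294 to 0.0888 for *Fbn2* and from 0.0354 to 0.0992 for *Ltbp4*. It was at most 0.05 under 7, 5 and 5 of the 10 settings, in that order. For *Fbn2* and for *Ltbp4* it was at most 0.05 without 4 of the 12 arrays and above 0.05 without any of the others. *Ltbp2* was called without 2 of the 12 arrays, *Scnn1b*-Tg PND 10 replicate 2 and *Scnn1b*-Tg PND 42 replicate 1, and lost its call without any of the other 10 (adjusted p = 0.0269 to 0.171 over all 12). Without *Scnn1b*-Tg PND 42 replicate 1 *Eln* was called as well, at 1.49 log2 (adjusted p = 0.00933). From PND 0 to PND 3 limma called no difference between the genotypes for a member or for any other row (0%), and 1 member had an unadjusted p under 0.05 (4.75% of rows).

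The wider set of elastic fibre genes moved in part with the members. Of 9 ADAMTS and ADAMTS-like genes, whose products sit on microfibrils, *Adamts10*, *Adamts17* and *Adamtsl2* fell in WT lungs between birth and PND 3, by 1.89, 1.43 and 2.5 log2. From PND 3 to PND 10 *Adamts10* rose by 1.65, *Adamts17* by 1.58 and *Adamtsl3* by 1.14, and to PND 42 *Adamts10* fell by 1.76 and *Adamts17* by 2.27. The *Adamts17* pools in WT were 8.57, 7.72 and 7.61, then 6.6, 6.28 and 6.74, then 8.05, 8.12 and 8.19, and last 5.93, 6.28 and 5.33. These 2 genes, like *Eln* and *Ltbp2*, were thus called downward, upward and downward again in WT lungs. In *Scnn1b*-Tg lungs 4 of the 9 fell, 2 rose and 1 fell over the same 3 intervals. Of all rows, 7.79% fell, 1.05% rose and 3.84% fell over them in WT, and 8%, 0.817% and 3.38% in *Scnn1b*-Tg lungs. The list's median from PND 10 to PND 42 was 0.43 log2 in WT.

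**Figure D4:**
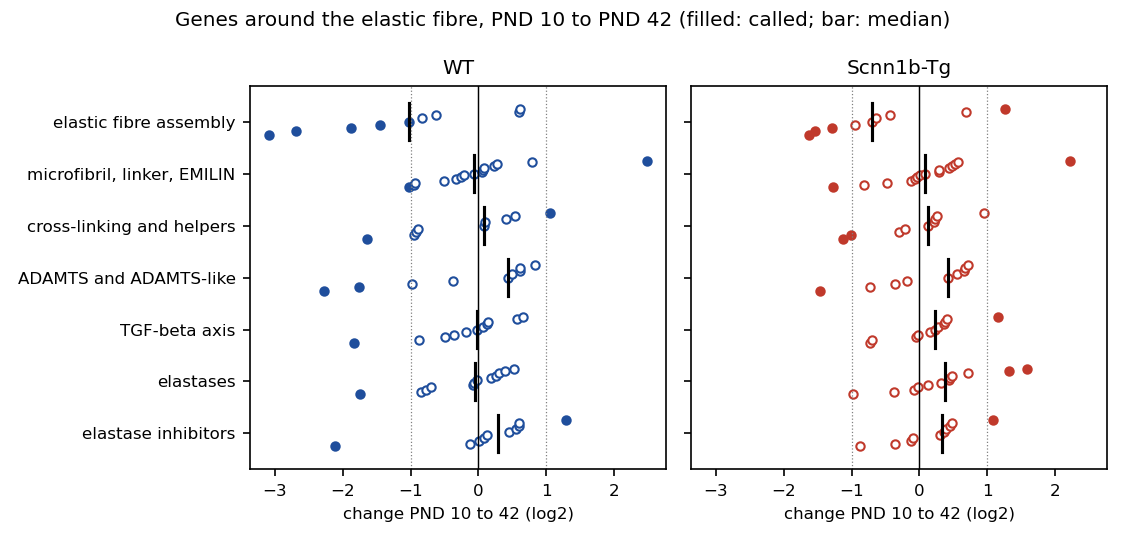
Change from PND 10 to PND 42 (log2) of the measured elastic fibre assembly genes and of 6 lists of genes around the elastic fibre, in WT (left) and Scnn1b-Tg lungs (right). Circles are genes, filled where called, black bars are list medians and dotted lines stand at 2-fold. The medians of the assembly genes, -1.03 and -0.70 log2, lie left of those of the other 6 lists, and single genes such as *Efemp1* (2.49 and 2.22 log2) lie far to the right.

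Of 15 measured microfibril, linker and EMILIN genes, 1 rose and 3 fell in WT lungs between birth and PND 3, where 1.96% of rows rose and 7.79% fell. *Mfap5*, a microfibril-associated glycoprotein gene, rose by 1.46 log2 (adjusted p = 0.0001), while *Ltbp3*, the remaining latent TGF-beta binding protein gene, fell by 1.66 (adjusted p = 9.3e-09). From PND 10 to PND 42 *Efemp1*, which encodes fibulin-3, rose by 2.49 log2 in WT and by 2.22 in *Scnn1b*-Tg lungs, whereas *Mfap2*, a microfibril-associated glycoprotein gene as well, fell by 1.02 and 1.27. The other 13 were not called in that interval in either genotype.

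Among 9 measured cross-linking enzymes and their helpers, 1 rose and 1 fell in WT and 2 fell in *Scnn1b*-Tg lungs from PND 10 to PND 42. In that interval 3.84% of rows fell in WT and 3.38% in *Scnn1b*-Tg lungs, and 371 of the 21789 rows rose in WT. *Bmp1*, a protease that activates pro-lysyl oxidase, fell by 1.64 log2 (adjusted p = 1.1e-09) in WT and by 1.01 in *Scnn1b*-Tg lungs. *Atp7a*, the copper pump that supplies lysyl oxidases, fell from PND 0 to PND 3 by 1.15 in WT and 1.41 in *Scnn1b*-Tg lungs. Of 11 genes of the TGF-beta axis, 4 fell in that first interval in each genotype, where 7.79% of rows fell in WT and 8% in *Scnn1b*-Tg lungs. These were *Tgfbr3*, *Itgav*, *Lrrc32* and *Thbs1*, the first 3 by 2.14, 1.20 and 1.36 log2 in WT. *Thbs1*, an activator of latent TGF-beta, fell by 1.71 log2 there and again by 1.83 from PND 10 to PND 42 in WT.

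Of 12 elastase genes, 2 were called between the genotypes at PND 10 and at PND 42, both upward, where 0.151% and 0.34% of rows were called. At PND 42, 3 of the 12 passed the adjusted p. *Mmp12*, the macrophage elastase, was higher in *Scnn1b*-Tg lungs by 1.98 log2 (adjusted p = 0.0013) at PND 10 and by 4.34 (adjusted p = 3.5e-09) at PND 42. Its pools were 7.65 to 8.41 against 5.40 to 6.6 at PND 10 and 9.54 to 10.05 against 5.24 to 5.64 at PND 42. *Ctsk*, the gene of the elastin-degrading cathepsin K, was higher by 1.25 and 3.27 log2. None of 10 measured elastase inhibitors was called between the genotypes at any of the 4 ages. In WT lungs *Mmp14*, a membrane-bound protease, fell by 1.75 log2 (adjusted p = 8.1e-09) from PND 10 to PND 42.

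Markers of the cells that make elastic fibres changed in part over the same intervals. From PND 0 to PND 3, 3 of the 12 myofibroblast and smooth muscle markers fell in each genotype. Of all rows 7.79% fell in WT and 8% in *Scnn1b*-Tg lungs. The list's medians were -0.07 and -0.08 log2, against -1.18 and -0.91 for the members. Of 11 fibroblast markers 1 rose and 0 fell in each genotype, with medians of 0.13 and 0.01. Of all rows 1.96% rose in WT and 493 of 21789 in *Scnn1b*-Tg lungs. The 12 myofibroblast and smooth muscle markers summed to 6550 to 6790 in WT pools of PND 10 and 3240 to 4600 at PND 42. In WT 3 of the 12 fell (3.84% of rows fell), *Aspn* by 4.16, *Actg2* by 1.13 and *Pdgfrb* by 1.05 log2. The list's WT values reached up to 0.94, with a median of -0.76 and 0 called higher. In *Scnn1b*-Tg lungs 4 of the 12 fell (3.38% of rows fell) and 1 rose, by 2.10 log2 (1.79% of rows rose), with a median of -0.59. Of 11 fibroblast markers 4 fell and 2 rose in each genotype, with WT sums of 8320 to 8560 and 4860 to 6010. From PND 3 to PND 10, 3 of the 12 myofibroblast and smooth muscle markers rose in WT (1.05% of rows rose), with a list median of 0.28. These were *Pdgfra*, *Pdgfrb* and *Aspn*, by 1.26, 1.35 and 1.10 log2. In *Scnn1b*-Tg lungs 0 of 12 rose (0.817% of rows rose), with a median of 0.36. Of the 11 fibroblast markers 0 rose in WT and 1 rose in *Scnn1b*-Tg lungs in this interval, with medians of -0.06 and 0.52 log2. The 8 endothelium markers summed to 4800 to 6020 at PND 0 and 2710 to 3140 at PND 3 in WT, and the 9 cartilage markers to 308 to 400 and 241 to 263, with 0 of the 9 called between these ages. The part of these cells in the changes of the elastic fibre genes was not tested.

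By root mean square difference of the 8 group means, each centred on its own mean, the genes outside the set with courses nearest to *Eln* were *Wnt5a* (0.29 log2), *Slc4a1* (0.29), *Mmp14* (0.32), *Adamts9* (0.34) and *Adgra2* (0.34). Within the set *Mfap4* and *Fbn2* were nearest to *Eln*, at 0.46 and 0.47, and the smallest distances between any 2 members were those of *Fbln5* and *Loxl1* (0.22) and of *Ltbp1* and *Ltbp4* (0.24). Flat courses are near each other by this measure, and the 8 means share arrays and normalization.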

How the data were processed

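RNA of 24 pools of whole lung was measured on Affymetrix Gene 1.0 ST mouse arrays, 3 per genotype and age. The authors made log2 values from the probe signals by RMA in Partek 6.5 (per the labels) and deposited 1 value per row and array. Of 35556 rows, 21789 name 1 gene in GEO's platform annotation, 1621 several and 12146 none. No genome build or scan date is given in the sources used here for this table, so no probe coordinates are printed.

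A linear model with a mean for each of the 8 groups was fitted to the 24 arrays in limma 3.58.1 (R 4.3.3, moderated by eBayes, 16 residual degrees of freedom). Its contrasts were the age intervals within each genotype, *Scnn1b*-Tg against WT at each age, and how the intervals differed by genotype. Benjamini-Hochberg adjustment ran over 21789 rows within a contrast. A call needed no more than 0.05 after adjustment and 2-fold or more. The values were used as deposited. The fit was tested on simulated data. Replicates are separate pools, and their number, 3 a group, limits the precision. Named are all members, up to 4 genes of a list in a contrast (those of lowest p), the 5 genes nearest to *Eln*, and *Scnn1b*. Members and lists were chosen with earlier results of these data known, and the promoter stretches (found for 5 of the 10 symbols) and motifs after the values were seen.

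The alternatives were a fit without eBayes, a fit of the compared arrays only, a trended and robust prior, array weights, a replicate block, rows above 5 log2 on average in some group only, every row of the table, a single row for each gene, another quantile normalization, subtraction of array medians, limits of 1.5-fold or none, and leaving out each array.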

Additional observations from a re-analysis of the deposited data

Results flagged for a closer look

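For 3 members the change from PND 10 to PND 42 differed between the genotypes by the test of the difference itself (*Scnn1b*-Tg change minus WT change, limma with Benjamini-Hochberg adjustment over all rows). The difference was 1.45 log2 for *Ltbp2* (adjusted p = 0.0496), 0.76 for *Fbn2* (adjusted p = 0.0455) and 0.65 for *Ltbp4* (adjusted p = 0.0432). At PND 10 all 3 *Scnn1b*-Tg pools lay under all 3 WT pools for each of these genes. At PND 42 the *Scnn1b*-Tg pools of *Ltbp2* and *Ltbp4* lay above the WT pools, and those of *Fbn2* overlapped them. Leaving out 1 array moved the adjusted p to between 0.0269 and 0.171 for *Ltbp2*, 0.0357 and 0.163 for *Fbn2* and 0.0269 and 0.141 for *Ltbp4*. It was at most 0.05 in 2, 4 and 4 of the 12 omissions, in that order. The groups hold 3 pools each, too few for a test of outlying pools.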

How the results depend on the processing

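Of the results over the members, no count or change turned direction under any alternative where it was called. Under the alternatives 255 values of these counts stayed within 1.5 times the count reported and 33 did not. With a 1.5-fold limit the counts were 5 for WT and 2 for *Scnn1b*-Tg from PND 3 to PND 10, 9 and 7 from PND 10 to PND 42, 6 for *Scnn1b*-Tg from PND 0 to PND 3, 1 between the genotypes at PND 10 and 3 for the genotype difference from PND 10 to PND 42. With no fold limit they were 6 and 2, 9 and 7, 6, 2 and 3, and 7 for *Scnn1b*-Tg from PND 0 to PND 42. Of all rows, 5.03% and 3.27% passed with no fold limit from PND 3 to PND 10, and 30.4% in WT from PND 10 to PND 42. Between the genotypes 0.427% did so at PND 10, and 0.321% for the difference from PND 10 to PND 42. For *Scnn1b*-Tg lungs from PND 0 to PND 3, PND 10 to PND 42 and PND 0 to PND 42 this share is not given here. The member counts of 6, 7 and 7 in these intervals cannot be set against it. The share of all rows is not given here for the 1.5-fold limit or without single arrays, so the member counts there cannot be set against it. With quantile normalization repeated 3 members fell in WT from PND 0 to PND 3, as did 963 of the 21789 rows. The genotype difference from PND 10 to PND 42 had 0 calls without eBayes, with array weights and with all rows. The cause was not tested, except that a lower limit admits more by construction and that adjustment over all rows takes in more tests.

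Leaving out single arrays gave 3 to 5 members for *Scnn1b*-Tg from PND 0 to PND 3 (5 without *Scnn1b*-Tg PND 3 replicate 1), 1 to 2 from PND 3 to PND 10 (2 without *Scnn1b*-Tg PND 3 replicate 2), 0 to 1 between the genotypes at PND 10 and 0 to 2 for the genotype difference from PND 10 to PND 42. With the replicate number as a block the counts were those reported, 6, 2, 5 and 5 in WT, 3, 1, 4 and 4 in *Scnn1b*-Tg lungs (PND 0 to 3, 3 to 10, 10 to 42 and 0 to 42), 0 between the genotypes at each age and 0, 0 and 1 for the differences of intervals. Deviations of same-numbered WT and *Scnn1b*-Tg arrays correlated between -0.255 and 0.299 over 12 pairs, with 5 above 0.1. At PND 0 they stood at 0.299, 0.153 and 0.290, and each other age had both signs. Differently numbered arrays were not compared, so these values cannot decide whether the numbers pair the pools.

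Subtracting array medians moved the median row by 0.17 log2 in WT and 0.15 in *Scnn1b*-Tg lungs from PND 0 to PND 3, and by 0.23 and 0.19 from PND 0 to PND 42. Of all calls in WT from PND 0 to PND 3, 20.1% were upward, against 45.1% with quantile normalization repeated and 40.7% with medians subtracted. In *Scnn1b*-Tg lungs they were 22.0%, 42.7% and 39.2%. From PND 10 to PND 42 they were 30.7%, 49.7% and 37.3% in WT and 34.7%, 51.7% and 43.1% in *Scnn1b*-Tg lungs, and from PND 0 to PND 42 15%, 46.5% and 35.7%, and 22.2%, 50.1% and 39.2%. No member has a further row, so other rows of the same gene gave no value. RMA compresses signals near background, which bears on *Fbn2* at PND 3 and PND 42 and, in *Scnn1b*-Tg lungs, at PND 10. Its group means there lay under 5 log2. The *Fbn2* differences between the genotypes at PND 10 and in the change to PND 42 draw on these groups.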
